A study of Saccharomyces cerevisiae with 28 samples.

Results

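The tgs1 and ynr004w strains of budding yeast were set against each other directly, at matched temperatures and times, on spotted 2-colour microarrays designed to follow splicing. Each strain was collected from growth at 30 °C (0 min) and from the cold, 10, 25 and 40 min into a shift to 16 °C, and was compared on every array with wild-type cells taken in that same condition. At each time point the log2 ratio of ynr004w to wild type was subtracted from that of tgs1 to wild type, within the same dye orientation. This gave 8 matched array pairs from 16 of the 28 arrays of the series, 8 arrays per strain. The other 12 arrays carry other deletion strains. The labels give tgs1 and ynr004w as the genotypes, which the series describes as gene deletions. The sources used here do not give strain background, mating type, growth medium, or whether both mutants were set against one wild-type RNA. If the wild-type RNAs were separate, any difference between them also enters each tgs1 minus ynr004w value. It could not be told apart from a difference between the mutants.

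TGS1 (YPL157W) encodes the trimethylguanosine synthase, the methyltransferase that turns the monomethyl cap of spliceosomal small nuclear RNAs (snRNAs) and of small nucleolar RNAs (snoRNAs) into a trimethyl cap. Yeast without it lives but grows poorly in the cold and splices some introns inefficiently. YNR004W is now named SWM2 and encodes a protein that binds Tgs1 and takes part in cap trimethylation. The comparison sets the loss of an enzyme beside the loss of its partner.

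The mutant carried Cy5 on one array of a condition and Cy3 on the other, and the mean of both counts as 1 value. Each strain thus has 4 values per gene, one per time point, and the spread between time points is the error used here. Between 9084 and 9199 of the 9216 spots on an array had a value, and array medians lay between -0.03 and 0.03. The ratios are likely mutant over wild type and were read as log2, although no source states their direction or log base. Were they wild type over mutant, "higher" and "lower" would change places throughout. The dye left a strong mark: arrays of the same orientation correlated over 982 genes at 0.81 to 0.97, whichever strain they carried, and the 2 orientations of one condition at -0.54 to -0.10. Genes whose difference changed sign between the orientations, or was over 3 times larger in one of them, are described as such below.

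The deleted genes could not be used to check the labels. TGS1 has 1 probe, and on the 8 tgs1 arrays it lay between 0.38 and 0.67 in Cy5 and between -1.16 and -0.83 in Cy3. On the 8 ynr004w arrays it lay between 0.44 and 0.63 in Cy5 and between -0.60 and -0.47 in Cy3. Averaged over dyes, TGS1 was at -0.09, -0.18, -0.33 and -0.32 in tgs1, against -0.02, 0.02, -0.01 and -0.02 in ynr004w at 0, 10, 25 and 40 min. It was lower in tgs1 by -0.22 ± 0.05 (SE, as for every difference below, n = 4 time points, limma adjusted p = 0.0176), in 7 of 8 pairs, and the difference averaged -0.03 in the Cy5 pairs and -0.42 in the Cy3 pairs. Whether the probe lies inside the deleted stretch is not given. Against wild type, TGS1 averaged -0.23 in tgs1 (limma adjusted p = 0.0104), a called decrease but far from the loss of a transcript. The probes for 2 other deleted genes gave small ratios in their own strains, IST3 averaging 0.15 in ist3 and ISY1 -0.12 in isy1. SWM2 has no probe. The names tgs1 and ynr004w below therefore mean the arrays so labelled.

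Against wild type, nearly as many genes were called in one strain as in the other. In tgs1, 330 of 982 genes passed an adjusted p of 0.05 (33.6%), 165 higher and 165 lower than wild type. In ynr004w, 323 passed (32.9%), 169 higher and 154 lower. Of these, 208 were called in both strains with the same sign and 3 with opposite signs, while 119 were called in tgs1 only and 112 in ynr004w only. A call in one strain only is not a difference between them, and of the 208 genes called in both with the same sign, 5 passed the direct test between the strains. Since the strains may share wild-type RNA, these overlaps are given as counts, and nothing is read from them about how alike the mutants are.

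The direct differences were small. Averaged over 4 time points, 801 of 982 genes (81.6%) lay within 0.1 log2 units of 0 and 947 (96.4%) within 0.2, and the whole range ran from -0.28 to 0.47. The SD over genes was 0.24 for tgs1 over wild type, 0.25 for ynr004w over wild type and 0.09 for the difference between the strains. Between tgs1 and ynr004w, limma called 36 of 982 genes (3.67%) at an adjusted p of 0.05. Of these, 27 were higher in tgs1 (2.75%) and 9 lower (0.916%). At an unadjusted p of 0.05 there were 162. A stricter reading asked in addition for one sign in all 8 matched pairs and left 18 genes (1.83%), 15 higher (1.53%) and 3 lower (0.305%). One sign in all 8 pairs, whatever the p, was found in 31 genes (3.16%). In 49 genes (4.99%) the 4 values of tgs1 and the 4 of ynr004w did not overlap. The balance of higher and lower calls depended on the dye. The Cy5 pairs alone gave 4 genes higher and 18 lower, and the Cy3 pairs alone 45 higher and 10 lower.

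Few of these calls rested on every time point. Of the 36, 13 stayed called without 0 min, 5 without 10 min, 23 without 25 min and 27 without 40 min. SPL2, COS8, SUP16 and ADE12 stayed called whichever time point was left out. With only the arrays carrying the mutant in Cy5, 6 of the 36 stayed called, with only those carrying it in Cy3, 22, and SPL2 and SUP16 did so in both. STE3 lost its call without 0 min, MATALPHA1 without 0 or 10 min and TGS1 without 10, 25 or 40 min. MCM4, RPL7B, CWC2, CUP1-2, RGM1 and YNCB0011C lost theirs whichever time point was left out.

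**Figure D1:**
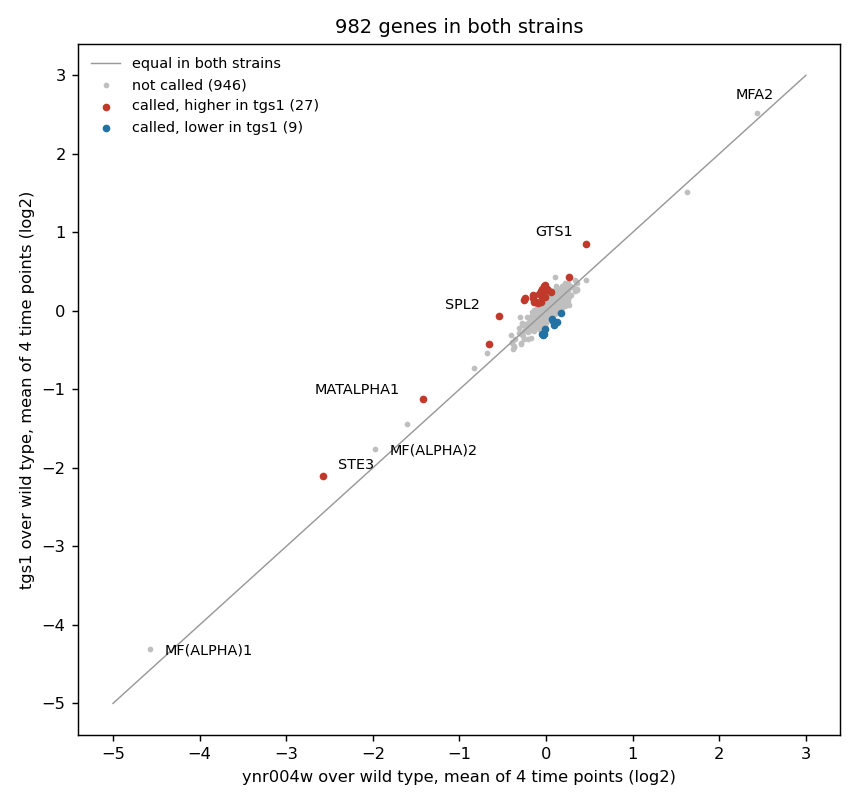
Mean log2 ratio over wild type of each of 982 genes in tgs1 (vertical) and in ynr004w (horizontal), over 4 time points. Red points are the 27 genes called higher in tgs1, blue points the 9 called lower and grey points the rest, and the line marks equal ratios. Most genes lie near the line, including the mating pheromone genes at both ends, and STE3, MATALPHA1, SPL2 and GTS1 lie above it.

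The 36 called genes were not of one kind. They held 15 transfer RNA genes and 21 protein-coding genes, and 35 of them have 1 probe on the array. Of all 982 genes, 64 are transfer RNA genes, 916 are protein-coding and 747 have 1 probe. Against wild type, 14 of the 27 genes higher in tgs1 were called in tgs1 only, 3 in ynr004w only, 7 in both and 3 in neither. Of the 9 lower genes, 5 were called in tgs1 only, 1 in ynr004w only, 1 in both and 2 in neither.

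SPL2 (YHR136C) showed the most stable difference. Its product restrains low-affinity phosphate uptake and its gene belongs to the phosphate-starvation response. SPL2 was at 0.02, -0.23, -0.04 and -0.03 in tgs1, against -0.35, -0.59, -0.65 and -0.56 in ynr004w at 0, 10, 25 and 40 min. It stayed near the wild-type level in tgs1 and was below it in ynr004w at every time, and the strains did not overlap. The difference was 0.47 ± 0.05 (SE, n = 4), 1.39-fold, with an adjusted p of 0.000264 by limma and the same sign in 8 of 8 pairs. SPL2 was the only one of the 36 genes that stayed called under each of the 16 alternative settings tried.

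COS8 (YHL048W), a member of a family of membrane proteins encoded near chromosome ends, lay on opposite sides of wild type. It was at 0.12, 0.11, 0.26 and 0.14 in tgs1, against -0.21, -0.28, -0.34 and -0.15 in ynr004w. Both strains were called against wild type, tgs1 higher (adjusted p = 0.0163) and ynr004w lower (adjusted p = 0.000894). The difference of 0.41 ± 0.05 was 1.32-fold (limma adjusted p = 0.00115, 8 of 8 pairs). Genes of this family resemble each other closely, and which of them the probe reads is uncertain.

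The copper metallothionein genes CUP1-1 and CUP1-2, tandem copies of one sequence, were both higher in tgs1. CUP1-1 was at 0.09, 0.33, 0.43 and 0.24 in tgs1, against -0.14, 0.12, -0.03 and 0.10 in ynr004w. The ranges overlapped, with tgs1 higher at each time. Its difference was 0.26 ± 0.05 (limma adjusted p = 0.0106) in 8 of 8 pairs, and at 30 °C alone it was 0.23. The call was lost in 5 of 16 alternative settings, among them those without 0, 10 or 25 min. CUP1-2 had a difference of 0.17 ± 0.04 (limma adjusted p = 0.049) in 7 of 8 pairs and was above wild type in both strains, at 0.44 in tgs1 and 0.27 in ynr004w. Since the copies cannot be told apart by sequence, the 2 probes may follow one and the same RNA.

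GTS1 (YGL181W), linked to metabolic rhythm and heat tolerance, was above wild type in both strains. It was at 0.55, 1.17, 1.03 and 0.68 in tgs1, against 0.50, 0.58, 0.23 and 0.55 in ynr004w. The strains differed most at 10 min (0.59) and 25 min (0.80) in the cold and little at 30 °C (0.04) and at 40 min (0.13). The mean difference of 0.39 ± 0.10 had a limma adjusted p of 0.0368, and the call was lost without 0, 10 or 25 min (limma adjusted p = 0.0524, 0.256 and 0.115). Without 25 min the difference was 0.25, and with the arrays brought to one spread 0.26. The call was lost in 11 of 16 alternative settings. The list of metal, phosphate and stress genes, to which these belong, had 4 of 14 members measured. All 4 were called higher in tgs1, against 2.75% of all genes. Of the 4, CUP1-1 and CUP1-2 may follow one RNA, and CUP1-2 lost its call in 14 of 16 alternative settings. That list was drawn up with earlier results of these arrays known and is not independent evidence of its direction.

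**Figure D2:**
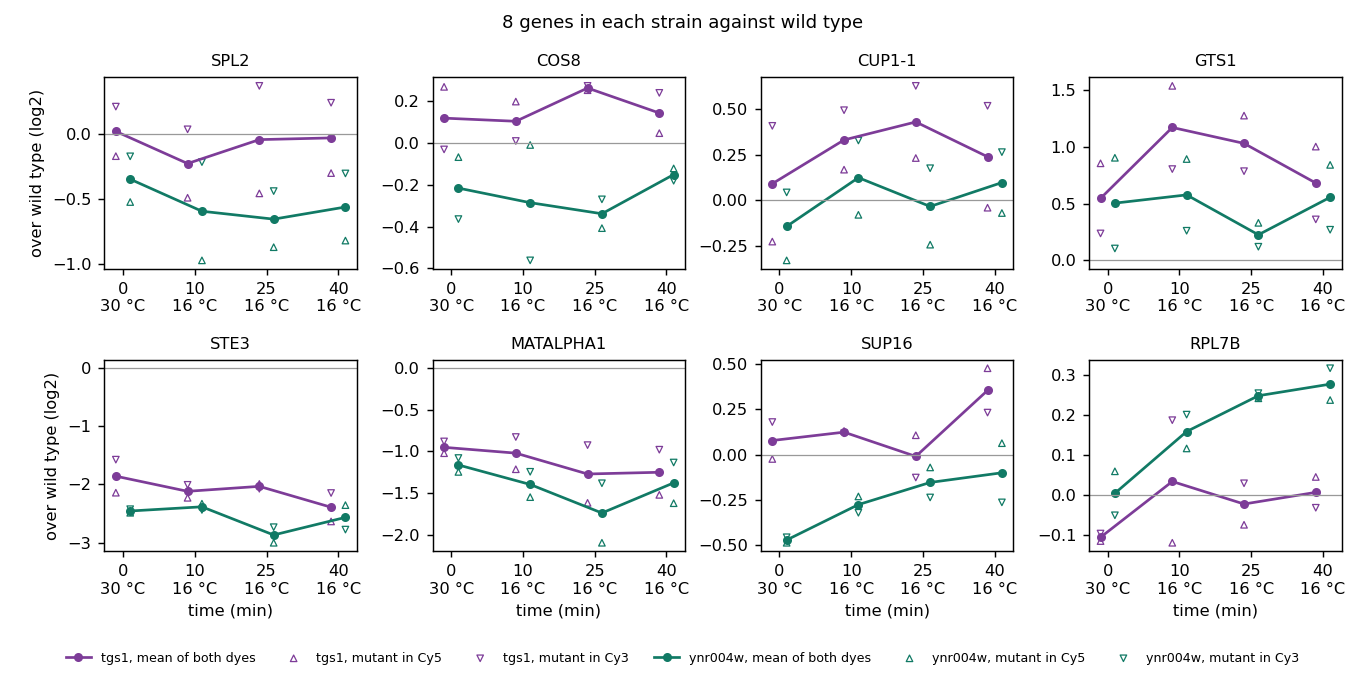
Log2 ratio over wild type of 8 genes in tgs1 (purple, left of each pair) and ynr004w (green) at 0 min (30 °C) and 10, 25 and 40 min (16 °C), with time points equally spaced. Filled points and lines are means of both dye orientations, and open triangles the single arrays. SPL2 and COS8 show tgs1 above ynr004w at all 4 times, GTS1 mainly at 10 and 25 min, and RPL7B shows tgs1 below ynr004w throughout.

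Genes of the mating system made up the largest ratios in both strains. Alpha cells express the alpha pheromone genes MF(ALPHA)1 and MF(ALPHA)2 and the receptor for a-factor, STE3, under the MATalpha1 activator, and a cells express MFA1 and MFA2. MF(ALPHA)1 was at -4.31 ± 0.22 in tgs1 and -4.57 ± 0.32 in ynr004w (SD, n = 4 time points each). MFA2 was at 2.52 ± 0.25 in tgs1 and 2.44 ± 0.29 in ynr004w. Both strains were called below wild type in all 5 measured alpha genes and above it in both measured a genes. The part of mating type in the other ratios to wild type was not tested.

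Between the strains, 3 alpha genes had ratios nearer to wild type in tgs1. Only ratios were used here, so whether their signal in either mutant stood above background was not tested. STE3 was at -1.86, -2.12, -2.03 and -2.39 in tgs1, against -2.46, -2.38, -2.87 and -2.57 in ynr004w. The tgs1 values were higher at every time, but the ranges met, the lowest of tgs1 falling just under the highest of ynr004w. The difference was 0.47 ± 0.08 (limma adjusted p = 0.0069) in 7 of 8 pairs, with 0.29 in the Cy5 pairs and 0.64 in the Cy3 pairs. MATALPHA1 differed by 0.30 ± 0.06 (limma adjusted p = 0.00784) and MATALPHA2 by 0.23 ± 0.05 (limma adjusted p = 0.0194), each in 8 of 8 pairs. MATALPHA1 lost its call in 5 of 15 alternative settings and MATALPHA2 in 8 of 15. MATALPHA1 averaged -1.12 ± 0.16 in tgs1 and -1.42 ± 0.24 in ynr004w, and MATALPHA2 -0.43 ± 0.05 in tgs1 and -0.66 ± 0.09 in ynr004w (SD, n = 4). Sequences of the MAT locus are repeated at the silent mating loci, so the source of these 2 signals is uncertain.

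The pheromone genes did not pass the test. MF(ALPHA)1 differed by 0.26 ± 0.10 (limma adjusted p = 0.215) and MF(ALPHA)2 by 0.21 ± 0.08 (limma adjusted p = 0.221). MFA1 differed by -0.12 ± 0.06 (limma adjusted p = 0.307) and MFA2 by 0.08 ± 0.06 (limma adjusted p = 0.524). In all, 3 of 5 measured alpha genes were called higher in tgs1, against 2.75% of all genes. Neither of the 2 measured a genes was called, which at 3.67% over all genes says nothing about them. The scale of an array weighs most on such extreme ratios. With the arrays brought to one spread, the STE3 difference became 0.84 and that of MFA2 turned to -0.36 (limma adjusted p = 0.00147).

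Transfer RNA genes held more of the calls than any other group listed. Of 64 measured, 13 were called higher in tgs1 and 2 lower, against 2.75% and 0.916% of all genes, and 48 of 64 (75%) had a positive mean difference, against 45.6% of all genes. Their median difference was 0.09, against -0.01 over all genes. The 40 nuclear tRNA genes had 10 called higher and 0 lower, with a median of 0.10, and the 24 mitochondrial ones 3 higher and 2 lower, with a median of 0.04. Each tRNA gene in the calls has 1 probe. The median over the 40 nuclear tRNA genes was 0.12, 0.14, 0.13 and 0.04 at 0, 10, 25 and 40 min. It was 0.07 in the Cy5 pairs and 0.13 in the Cy3 pairs.

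Against wild type, 15 of the 40 nuclear tRNA genes (37.5%) were called higher and 5 (12.5%) lower in tgs1, where 16.8% of all genes were called in each direction. In ynr004w, 3 (7.5%) were called higher and 5 (12.5%) lower, against 17.2% and 15.7% of all genes. Of the 24 mitochondrial ones, 8 were called higher and 7 lower in tgs1, and 1 higher and 4 lower in ynr004w. SUP16, a serine tRNA gene known for a suppressor allele, had the largest difference of this group. SUP16 was at 0.08, 0.12, -0.01 and 0.36 in tgs1, against -0.47, -0.27, -0.15 and -0.10 in ynr004w. The strains did not overlap, and the difference was 0.39 ± 0.06 (limma adjusted p = 0.00396) in 8 of 8 pairs. SUP11, a tyrosine tRNA gene, was at -0.02, 0.42, 0.24 and 0.02 in tgs1, against -0.41, 0.04, -0.12 and -0.11 in ynr004w. The ranges overlapped, with tgs1 higher at each time. The difference of 0.31 ± 0.05 (limma adjusted p = 0.00536) held in 8 of 8 pairs, although neither strain was called against wild type.

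Further nuclear tRNA genes with one sign in 8 of 8 pairs were YNCB0004W at 0.34 ± 0.06, YNCB0007W at 0.32 ± 0.06, YNCE0023W at 0.26 ± 0.05 and YNCB0011C at 0.17 ± 0.04. In these 4 genes tgs1 averaged 0.32, 0.26, 0.27 and 0.11, against -0.02, -0.06, 0.01 and -0.06 in ynr004w, in the same order. They stood above wild type in tgs1 and close to it in ynr004w. YNCA0006C (0.32), YNCB0018W (0.29), YNCD0013C (0.24) and YNCB0013W (0.24) were also called higher, each in 7 of 8 pairs. YNCD0013C and YNCB0013W rested mostly on the Cy3 pairs, where they averaged 0.41 and 0.39, against 0.08 each in the Cy5 pairs. Transfer RNA genes come in families of identical or nearly identical copies, so a probe named for one gene may read its relatives, and several of these values may not be independent.

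The calls among mitochondrial tRNA genes, which carry a Q after the anticodon in their names, went both ways. tY(GUA)Q was higher in tgs1 by 0.34 ± 0.07, tP(UGG)Q by 0.34 ± 0.09 and tW(UCA)Q by 0.30 ± 0.05. tC(GCA)Q was lower by -0.27 ± 0.06 and tA(UGC)Q by -0.26 ± 0.05. None of these 5 had one sign in all 8 pairs, and all were larger in the Cy3 pairs. There tW(UCA)Q averaged 0.51, against 0.09 in the Cy5 pairs, tP(UGG)Q 0.53, against 0.16, and tC(GCA)Q -0.41, against -0.13, while tA(UGC)Q was at -0.60, against 0.07. tP(UGG)Q stayed called in 3 of 15 alternative settings. The count of tRNA calls itself depended on the arrays used. It was 2 from the Cy5 pairs alone and 18 from the Cy3 pairs alone, 5 without 0 min, 1 without 10 min and 5 with only the probes that had all 6 spots on every array.

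**Figure D3:**
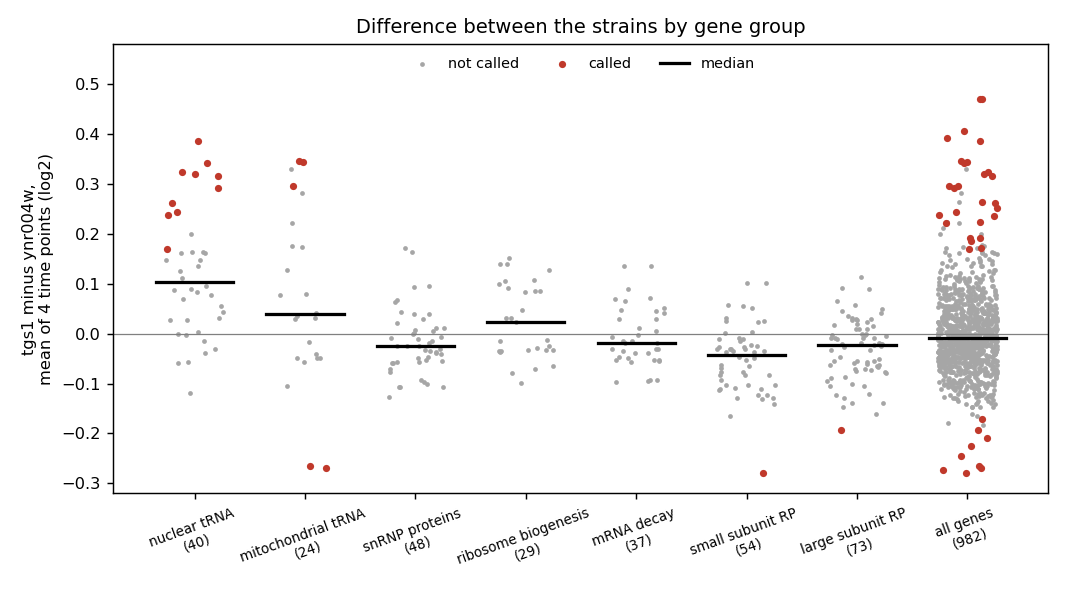
Mean difference between the strains (tgs1 minus ynr004w, log2) for each gene of 7 groups and for all 982 genes. Red points passed an adjusted p of 0.05, grey points did not, and black bars are medians. The nuclear tRNA genes have a median of 0.10, the small-subunit ribosomal protein (RP) genes -0.04, and all genes -0.01.

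Of 24 genes measured on the list of transcription factors, 2 were called (8.33%, against 3.67% of all genes), MATALPHA1 and MATALPHA2. The list leaves out other such genes on the array, among them MIG3 and RGM1 below, so this is not the share of all of them. The other protein-coding genes higher in tgs1 belonged to none of the lists. MIG3, a zinc-finger repressor, was higher by 0.22 ± 0.04 (limma adjusted p = 0.0104). TUP1, a general corepressor, was higher by 0.19 ± 0.05 (limma adjusted p = 0.0387). NHP6A, a chromatin protein that bends DNA, was higher by 0.19 ± 0.04 (limma adjusted p = 0.0232). All 3 had one sign in 8 of 8 pairs, as did CPP1 (YBR016W), higher by 0.22 ± 0.05. MIG3 averaged 0.19 in tgs1 and -0.03 in ynr004w, TUP1 0.24 in tgs1 and 0.05 in ynr004w, and NHP6A 0.10 in tgs1 and -0.09 in ynr004w. TUP1 rested mostly on 1 orientation, at 0.05 in the Cy5 pairs and 0.33 in the Cy3 pairs. The call was lost in 9 of 16 alternative settings for TUP1 and 8 of 15 for NHP6A. For MIG3 it was lost in 5 of 16 and for CPP1 in 6 of 15. RGM1, another zinc-finger gene, was higher by 0.19 ± 0.05 in 7 of 8 pairs, and ASP3-1, a cell-wall asparaginase with near-identical copies, by 0.25 ± 0.05 in 7 of 8.

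**Figure D4:**
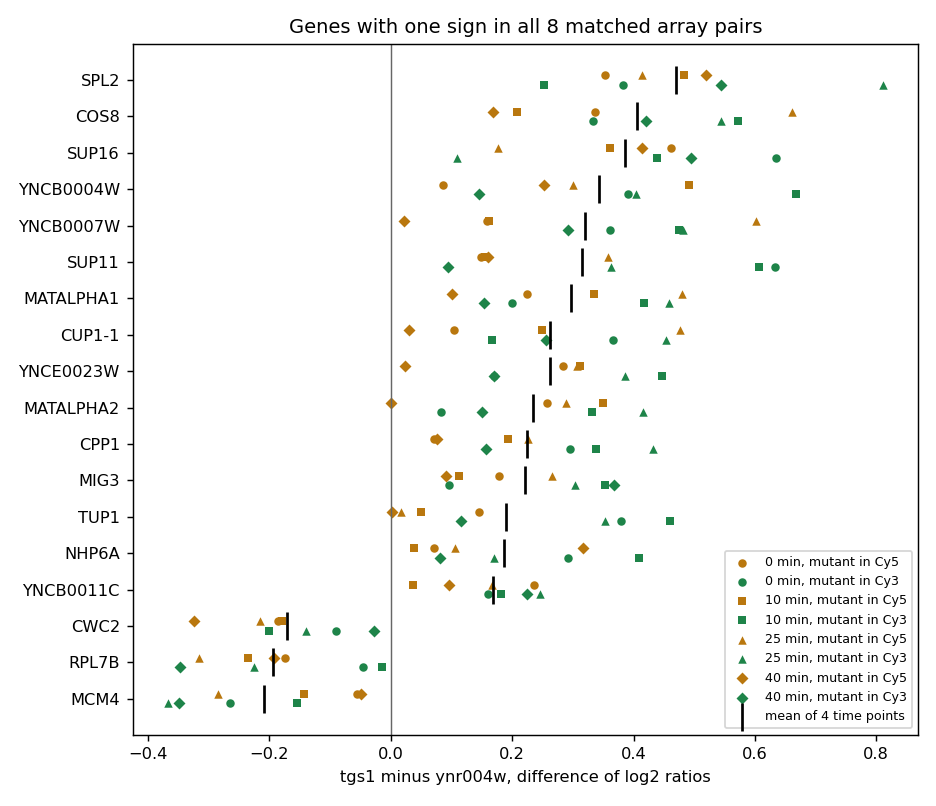
Difference between the strains (tgs1 minus ynr004w, log2) in each of the 8 matched array pairs for the 18 called genes with one sign in all of them. Symbols mark the time point and colours the dye of the mutant, and black ticks are means over 4 time points. The 15 genes higher in tgs1 lie right of 0 and CWC2, RPL7B and MCM4 left of it, with some single pairs close to 0.

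Fewer genes were called lower than higher in tgs1 with both dyes averaged, but not in the Cy5 pairs alone. MCM4, a subunit of the replicative helicase, was at 0.04, -0.13, -0.24 and -0.20 in tgs1, against 0.20, 0.02, 0.08 and -0.0036 in ynr004w. RPL7B, a large-subunit ribosomal protein gene whose introns carry a snoRNA, was at -0.11, 0.03, -0.02 and 0.01 in tgs1, against 0.00, 0.16, 0.25 and 0.28 in ynr004w. CWC2, a splicing factor of the Prp19-associated complex that contacts the catalytic RNA of the spliceosome, was at -0.03, -0.12, -0.13 and -0.12 in tgs1, against 0.11, 0.07, 0.05 and 0.05 in ynr004w. All 3 were lower in tgs1 at every time point and in 8 of 8 pairs, and in CWC2 the strains did not overlap. The differences were -0.21 ± 0.05 for MCM4, -0.19 ± 0.05 for RPL7B and -0.17 ± 0.04 for CWC2, with limma adjusted p-values of 0.0177, 0.0335 and 0.0379. RPL7B is the one called gene with 3 probes, and taking the median of its probes on each array in place of their mean left -0.03 (limma adjusted p = 0.824).

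RPS3, a small-subunit ribosomal protein, had the lowest difference of all genes. It was at -0.21, -0.46, -0.36 and -0.21 in tgs1, against -0.03, -0.13, 0.06 and -0.03 in ynr004w, a difference of -0.28 ± 0.05 (limma adjusted p = 0.00711) in 7 of 8 pairs. ADE12, which makes an AMP precursor, was lower by -0.27 ± 0.04 (limma adjusted p = 0.00536), with -0.48 in the Cy5 pairs and -0.06 in the Cy3 pairs. KAR2, the Hsp70 chaperone of the endoplasmic reticulum, was lower by -0.25 ± 0.05 (limma adjusted p = 0.0102), with -0.57 in the Cy5 pairs and 0.08 in the Cy3 pairs. RPS3 did not overlap between the strains and showed the same direction in both orientations, whereas the KAR2 difference came from the arrays with the mutant in Cy5.

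Few genes for the splicing machinery were called, as over all genes (3.67%), so the counts say nothing particular about them. Of 48 genes for snRNP proteins, the protein partners of the spliceosomal RNAs, none was called by limma, and the median difference was -0.03. The largest were SME1, a core Sm protein, at 0.17 ± 0.05 (limma adjusted p = 0.0712), and LSM3, a core protein of the U6 particle, at 0.16 ± 0.05 (limma adjusted p = 0.0701), each with one sign in 8 of 8 pairs. None of 15 genes for spliceosomal helicases and second-step factors was called. CWC2 was the single call among 17 Prp19-associated and RES genes, and TGS1 itself among 9 genes for commitment and cap-binding proteins. The helicase group had a median of -0.08 in the Cy5 pairs and 0.01 in the Cy3 pairs.

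Genes for proteins that work with snoRNAs, which are also substrates of Tgs1, gave no call. At 3.67% over all genes, the counts between the strains in these groups say nothing particular about them. None of 10 genes for snoRNP and snoRNA biogenesis proteins passed, with NOP1 (fibrillarin) at 0.14 ± 0.05 and NHP2 at -0.10 ± 0.05. None of 29 ribosome biogenesis genes passed, the largest being HAS1, an RNA helicase, at 0.15 ± 0.04 (limma adjusted p = 0.0724). Against wild type, 12 of these 29 were called higher and 0 lower in tgs1, and 9 higher and 1 lower in ynr004w. As shares, 41.4% were higher in tgs1 (16.8% of all genes) and 31% in ynr004w (17.2% of all genes). The lower calls were 0% in tgs1 (16.8% of all genes) and 3.45% in ynr004w (15.7% of all genes). The orientations disagreed for the whole group, whose median difference was -0.07 in the Cy5 pairs and 0.14 in the Cy3 pairs. Of 10 genes whose introns host a snoRNA, RPL7B alone was called.

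Ribosomal protein genes lay slightly below 0. In the small subunit, 1 of 54 genes was called (RPS3, lower), 11 of 54 had a positive difference (20.4%, against 45.6% of all genes), and the median was -0.04. In the large subunit, 1 of 73 was called (RPL7B, lower), 21 of 73 had a positive difference (28.8%), and the median was -0.02. These calls are under the 3.67% over all genes, and the median over all genes was -0.01. Many ribosomal protein genes have 3 probes. Of the 231 genes with 3 or 4 probes, 33.8% had a positive difference and the median was -0.02, close to the large-subunit values. The median over small-subunit genes was 0.01, -0.07, -0.12 and -0.02 at 0, 10, 25 and 40 min. Many of these genes are duplicated, and near-identical pairs may share signal.

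The remaining lists held 1 further call, against 3.67% of all genes. KAR2 was 1 of 10 genes for chaperones and heat shock. None was called among 37 genes for mRNA decay, 17 for mRNA export, 3 cold-inducible genes, 6 for glycolysis and glycerol, 5 for the respiratory chain, 11 for translation initiation, 11 meiotic intron genes, 8 for actin and tubulin, 16 intron genes for traffic between endoplasmic reticulum and Golgi, and 2 histone genes. Some genes had ratios far from wild type that the strains shared. The glycolytic gene TDH1 was at -1.45 in tgs1 and -1.61 in ynr004w. Among the ribosomal protein genes above, the intron-bearing RPS22B was at -0.73 in tgs1 and -0.83 in ynr004w. Neither passed the test between the strains (limma adjusted p = 0.181 and 0.325).

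The shift to 16 °C did not change the difference between the strains in any gene by the test. With the mean difference at 10, 25 and 40 min set against the single value at 30 °C, limma called 0 of 982 genes (0%), with 73 at an unadjusted p of 0.05 and a smallest adjusted p of 0.608. The highest changes were MF(ALPHA)1 at 0.47 ± 0.22, GTS1 at 0.47 ± 0.21, MAL33 at 0.46 ± 0.11 and tP(UGG)Q at 0.43 ± 0.19 (SE). The lowest were SST2 at -0.34 ± 0.11, GCN3 at -0.33 ± 0.13, RPA34 at -0.33 ± 0.09 and HSP104 at -0.32 ± 0.09. HSP104, the disaggregating chaperone, differed by 0.35 at 30 °C and by 0.03 in the mean at 16 °C, and GTS1 by 0.04 at 30 °C and 0.51 at 16 °C. With 1 value at 30 °C and 2 residual degrees of freedom, changes of this size could not be told from the spread. The SD over genes of the difference was 0.11, 0.13, 0.16 and 0.10 at 0, 10, 25 and 40 min.

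Single probes were tested as well, because the probes of an intron-bearing gene may follow different RNA forms. The sources used here do not say what each probe reads. Of 1457 named probes, 34 passed (2.33%), 23 higher in tgs1 (1.58%) and 11 lower (0.755%), and 14 of them (0.961% of probes) had one sign in 8 of 8 pairs. Most of the 34 are the sole probes of genes described above, and 6 belong to genes with 3 probes. One TAD3 probe, for a subunit of the tRNA adenosine deaminase, was at -0.43 in tgs1 and -0.06 in ynr004w, a difference of -0.37 ± 0.07 (limma adjusted p = 0.0132) in 7 of 8 pairs. The other TAD3 probes differed by 0.09 and -0.03. One GIM5 probe, for a prefoldin subunit, was lower by -0.20 ± 0.05 in 8 of 8 pairs (limma adjusted p = 0.0489), with its other probes at -0.08 and -0.01.

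One COX5B probe was higher in tgs1 by 0.26 ± 0.05 (limma adjusted p = 0.0213), its other probes being at 0.04 and -0.02. COX5B encodes a subunit of cytochrome c oxidase. One ERD2 probe, for the receptor that returns escaped proteins to the endoplasmic reticulum, was at -0.73 in tgs1 and -0.48 in ynr004w and lower by -0.25 ± 0.06 (limma adjusted p = 0.0393). Its other probes differed by -0.09 and 0.02. One ARP2 probe was higher by 0.21 ± 0.05 (limma adjusted p = 0.0483) in 6 of 8 pairs, its others at 0.02 and 0.04. For RPL7B, 1 probe was lower by -0.28 ± 0.06 (limma adjusted p = 0.0261) in 6 of 8 pairs, its others at -0.15 and -0.15. In 5 of these 6 genes 1 probe of 3 was apart while the gene as a whole was not called.

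A contrast between probes of one gene was possible for 188 genes with 3 probes, 2 of which sit in linked positions of the print layout. The third probe was set against the mean of the 2 linked ones. Its median over genes was -0.13, -0.14, -0.20 and -0.20 in tgs1, against -0.14, -0.13, -0.17 and -0.18 in ynr004w at 0, 10, 25 and 40 min. In both strains the third probe thus lay below the linked ones by a like amount at each time. The strains' contrasts differed by a median of -0.02, and limma called 0 of 188 genes (0%), with 25 at an unadjusted p of 0.05. The lowest differences were APE2 at -0.24 ± 0.07 and HFM1 at -0.23 ± 0.07, and the highest RPS26B at 0.23 ± 0.07 and STO1 at 0.22 ± 0.08 (SE, limma adjusted p = 0.17 to 0.188). RPS16B was the one gene with one sign in all 8 pairs, at -0.03 in tgs1 and -0.25 in ynr004w, a difference of 0.22 ± 0.07 (limma adjusted p = 0.17).

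How well the difference repeats limits all of this. Over 982 genes, the differences of the Cy5 and Cy3 pairs of one time point correlated at -0.34, -0.08, 0.24 and -0.38 at 0, 10, 25 and 40 min. Averaged over dyes, the differences of any 2 time points correlated at 0.18 to 0.58. These are descriptions across genes, which share arrays, dyes and print layout. Among the 36 called genes, the mean of the Cy5 pairs and that of the Cy3 pairs had opposite signs in 2, KAR2 and tA(UGC)Q.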

How the data were processed

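Per the labels' protocols, cDNA was made with an aminoallyl nucleotide from total RNA obtained by acid phenol extraction, and mutant and wild-type samples shared each array. The deposited table holds 1 log2 ratio per spot, a unit read from the values. The sources used here do not give the authors' scanner, background correction, normalization, log base or ratio direction. The ratios were not turned, because mating genes kept one sign on both dye orientations. Probe names came from the platform annotation, and 982 of 982 identifiers matched the RefSeq R64 table. The array has 1536 probes in 6 spots each. A gene symbol was available for 1457 and none for 79, and genes had 1 (747), 2 (4), 3 (222) or 4 (9) probes. No build is named, so no coordinates are printed, and every table column was mapped (0 left out).

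The median of each array was subtracted, spots were averaged to probes and probes to genes, tgs1 minus ynr004w was taken within time and dye, and both dyes were averaged. limma 3.58.1 in R 4.3.3 tested the mean of 4 differences against 0 (lmFit, eBayes, 2-sided, Benjamini-Hochberg over all 982 genes, or over 1457 probes or 188 contrasts, with 3 residual and 10.7 prior degrees of freedom for genes). An exact sign-flip test over 4 differences cannot go below p = 0.125. Nothing says that arrays came from separate cultures, so p-values measure the spread between these time points, and the number of arrays limits the precision. As a pairing check, the deviations of both strains from their means correlated at 0.52, 0.45, -0.12 and 0.36 at 0, 10, 25 and 40 min. The pairing by time comes from the labels. The scripts were tested on simulated data.

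Named genes were TGS1 and SWM2, the mating genes, the 12 highest and 12 lowest called genes with one sign in all 8 pairs, 4 at each end for the change with temperature, 8 at each end for probes and contrasts, and up to 4 members per list with the largest differences. Other called genes and probes, and the remaining probes of their genes, were chosen after their values were seen. The comparison and the gene lists were chosen with earlier results of these data known.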

Additional observations from a re-analysis of the deposited data

Results flagged for a closer look

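In 2 of the 40 genes checked (the 36 called genes and 4 pheromone genes), 1 time point stood apart from the other 3, its gap to the nearest, over the whole range, exceeding Dixon's critical value for 4 values. Chance gives such a gap in about 1 of 20 groups. KAR2 differed by -0.090 at 0 min, against -0.30 to -0.29 at 10, 25 and 40 min. SUP11 differed by 0.13 at 40 min, against 0.36 to 0.39 at 0, 10 and 25 min. Of the 79 probes without a gene symbol, 6 were called between the strains by limma fitted over all 1536 probes. All 6 were higher in tgs1, and 3 had one sign in all 8 pairs. Of the 1457 named probes, in their own fit, 2.33% were called and 1.58% were called higher. In 0.961% of them the call came with one sign in all 8 pairs. The highest of the probes without a symbol differed by 0.36 (limma adjusted p = 0.0104).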

How the results depend on the processing

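Of the 36 genes called between the strains, 34 kept their sign under every alternative tried, and 1, SPL2, also stayed called in each. The exceptions in sign were KAR2, at 0.084 with only the Cy3 arrays, and tA(UGC)Q, at 0.072 with only the Cy5 arrays. MFA2, not called in the report, turned to -0.36 with arrays scaled to one spread. The count of 36 became 22 (4 higher, 18 lower) with only the Cy5 arrays, 55 (45 higher, 10 lower) with only the Cy3 arrays, and 20 in a fit over all 14 conditions of the series. With only probes that had all 6 spots everywhere it was 25 (13 higher, 12 lower). Leaving out 1 time point gave 5 to 35 genes (13 without 0 min, 5 without 10 min, 23 without 25 min), 1 to 52 probes and 0 to 1 contrasts. The pairing of the strains by time mattered: without that block, 2 genes and 2 probes were called. With the array number, which marks the dye, as a replicate block on 16 arrays, 13 genes were called.

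Called genes with one sign in every pair used were 18 over 8 pairs in the report. They came to 7 with fully spotted probes, 2 without the block, 10 with the array number as a block and 9 over 14 conditions. With only the Cy3 arrays all 55 called genes had one sign, and without 1 time point 4 to 19 had. Those settings use fewer pairs, so their counts cannot be set against 18. Of probes, 34 in the report, 60 (30 higher, 30 lower) were called with arrays scaled to one spread, 21 with only the Cy5 arrays and 65 with only the Cy3 arrays. The probe contrast, with 0 calls in the report, had 3 with the median of spots, 1 with only the Cy5 arrays and 10, all lower, with only the Cy3 arrays. Against wild type, leaving out 1 time point gave 79 to 383 genes in tgs1 and 176 to 357 in ynr004w. The test of temperature gave 0 calls under every alternative that could be run. The cause of these shifts was not tested.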
